A study of Mus musculus with 2 samples.

Results

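The germline and meiosis genes Stra8, Dazl, Ddx4, Mael, Sycp3, Taf7l, Tex101, Hormad1, Asz1 and Gpat2 were examined in mouse embryonic stem cells that carried a control hairpin or one targeting LincU, a long noncoding RNA. These 10 genes were taken by gene symbol from the array's own probe annotation, which gave 17 of 56605 non-control probes and 10 of 36992 genes. They were selected on the difference in intensity between these same arrays, so all values of the members are descriptions and none was tested. RNA came from the line 46C, a mouse embryonic stem cell line that carries a Sox1-GFP reporter, kept in medium with serum and LIF on a feeder layer, which was taken off before RNA was prepared. One array was hybridised with RNA of cells labelled shCtrl, a control short hairpin, and one with RNA of cells labelled shLincU, a hairpin against LincU. In its title the control sample is named WT, although its other label is shCtrl. The study asks, by its title, whether LincU preserves naive pluripotency by restricting the kinase ERK. Each group is 1 array of 1 cell line, so there is no replicate, no test and no p-value, and the number of arrays limits the precision. LincU itself was not analysed here, so the knockdown was not checked and each direction rests on the labels.

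Germline genes are a set of testis and ovary genes that most other cells keep silent. In embryonic stem cells many of them are held down by DNA methylation of CpG-rich promoters and by PRC1.6, a Polycomb complex that reaches DNA through MGA with MAX, which bind the E-box CACGTG, and through E2F6. STRA8 is the retinoic acid responsive switch of meiotic entry and acts with MEIOSIN on genes of meiotic prophase. HORMAD1 and SYCP3 lie on the axes of meiotic chromosomes. DAZL and DDX4 are germ cell RNA regulators, and MAEL, ASZ1 and GPAT2 belong to the piRNA machinery that silences transposons in germ cells. TAF7L is a germ cell form of a TFIID subunit, and TEX101 is a surface protein of germ cells.

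The upstream sequences of the members are shown first, because the regulators named above are known to act through such elements. They are the 250 bases before the RefSeq transcript start in build GRCm38.p6, 5' to 3' on the gene's strand. The windows are Stra8 at chr6:34920698-34920947 (plus strand), Dazl at chr17:50293621-50293870 (minus), Gpat2 at chr2:127424949-127425198 (plus), Hormad1 at chr3:95559427-95559676 (plus) and Ddx4 at chr13:112652311-112652560 (minus). The first 3 belong to the members that were at least 2-fold lower on the shLincU array, and the other two hold both an E-box and an E2F match. Capitals mark matches on either strand to 4 motifs. These are the E-box CACGTG and the E2F motif GCGGGAA. The others are AGGTCA, one arm of a retinoic acid response element, and the motif of STRA8 with MEIOSIN, CNCCTCAG.
Stra8: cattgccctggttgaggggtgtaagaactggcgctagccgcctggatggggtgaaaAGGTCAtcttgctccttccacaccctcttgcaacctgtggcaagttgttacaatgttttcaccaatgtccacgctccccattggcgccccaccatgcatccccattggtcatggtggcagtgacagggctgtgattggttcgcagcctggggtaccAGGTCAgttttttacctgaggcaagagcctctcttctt
Dazl: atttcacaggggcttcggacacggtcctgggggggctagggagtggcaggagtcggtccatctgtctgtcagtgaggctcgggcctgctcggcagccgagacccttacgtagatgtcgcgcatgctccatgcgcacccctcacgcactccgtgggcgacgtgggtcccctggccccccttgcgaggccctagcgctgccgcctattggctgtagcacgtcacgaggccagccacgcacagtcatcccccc
Gpat2: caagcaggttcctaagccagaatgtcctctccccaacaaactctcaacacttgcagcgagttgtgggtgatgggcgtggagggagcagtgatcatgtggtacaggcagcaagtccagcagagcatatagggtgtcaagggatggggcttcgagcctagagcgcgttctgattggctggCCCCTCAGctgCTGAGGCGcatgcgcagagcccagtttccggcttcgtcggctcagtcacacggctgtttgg
Hormad1: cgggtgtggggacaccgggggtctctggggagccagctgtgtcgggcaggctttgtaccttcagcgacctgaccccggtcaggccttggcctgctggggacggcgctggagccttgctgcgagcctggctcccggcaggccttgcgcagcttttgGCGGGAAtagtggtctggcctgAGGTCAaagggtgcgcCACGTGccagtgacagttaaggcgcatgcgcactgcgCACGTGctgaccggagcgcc
Ddx4: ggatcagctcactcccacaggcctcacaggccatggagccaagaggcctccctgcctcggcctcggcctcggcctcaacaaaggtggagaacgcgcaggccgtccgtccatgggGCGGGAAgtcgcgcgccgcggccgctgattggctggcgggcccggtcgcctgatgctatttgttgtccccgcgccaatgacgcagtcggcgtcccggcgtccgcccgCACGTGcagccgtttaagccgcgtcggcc

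All 10 members had such a window among 32851 windows of 27025 genes, and no matches overlapped in them. The E-box CACGTG lay in 5 of 10 members (Mael, Hormad1, Sycp3, Ddx4 and Taf7l), against 6.02% of all windows. Hormad1 and Sycp3 held 2 copies each. The E2F match GCGGGAA lay in 3 of 10 members, Hormad1, Sycp3 and Ddx4, against 3.82% of all windows. These 3 therefore held both matches. The motif AGGTCA lay in Stra8 (2 copies), Hormad1 and Sycp3, against 14.0% of all windows, and direct repeats of it spaced by 2 or 5 bases lay in none of the 10 and in 3 windows each of all. The motif CNCCTCAG lay only in Gpat2 among the members, with 2 copies 72 and 61 bases before the start, against 6.42% of all windows. Stra8 and Dazl held no E-box, E2F or CNCCTCAG match, nor did Asz1 and Tex101. A match is a string of letters and not a binding site, and a window without one says nothing about binding elsewhere.

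The members' windows had a median of 14.5 CpG dinucleotides, against 6 over all windows. Ddx4 had the most, 31, a count reached by 5.19% of all windows, followed by Dazl with 20, Hormad1 with 19 and Mael with 18. Asz1 had 15, Taf7l and Tex101 14 each, Sycp3 12 and Gpat2 11. Stra8 was the one member below the median of all windows, with 5 CpG and a ratio of observed to expected CpG of 0.27. The motifs CACGTG and GCGGGAA each contain a CpG. Their shares over windows of similar CpG content were not computed, so their counts are not separate from the CpG content.

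**Figure D1:**
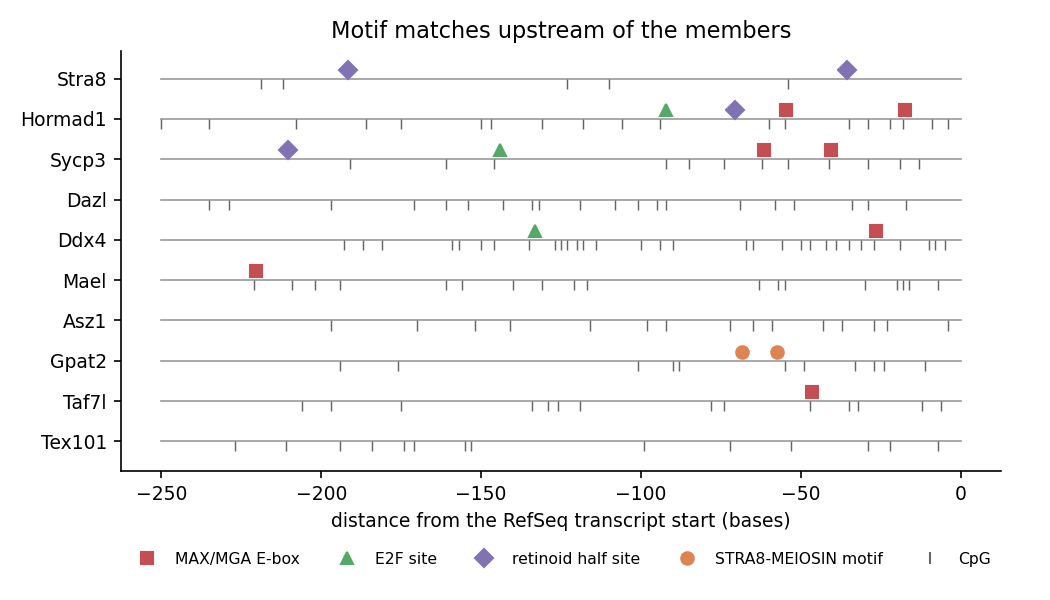
Motif matches (symbols) and CpG dinucleotides (ticks) in the 250 bases before the RefSeq start of each member; the x axis is the distance from the start in bases. E-box matches lie in 5 members, 4 of which have one within 64 bases of the start, and Stra8 has the fewest CpG, 5.

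Of the 17 member probes, 13 stood well above background with shCtrl and 12 with shLincU, and these 12 gave a difference for 9 of the 10 genes. Values are processed spot intensities and, for comparison between arrays, log2 of the intensity minus the 75th percentile of the same array, which was 626 units for shCtrl and 420 for shLincU. A difference is shLincU minus shCtrl on that log2 scale. The scanner software assigns an error to each spot that is mostly preset, and for a single bright probe the error of the difference came to about 0.20. It is not a spread between cultures. Of all 21018 genes measured on both arrays, 322 or 1.53% were at least 2-fold lower in shLincU and 240 or 1.14% at least 2-fold higher. Of the 9 measured members, 3 were at least 2-fold lower, 0 were at least 2-fold higher and 8 lay below 0, where 46.9% of all genes did. The members' median was -0.59 against 0.02 for all genes. As the members were picked with these values in view, nothing is read from this excess. By probe, 4 of the 12 measured member probes were at least 2-fold lower, against 1.43% of all probes, and 0 at least 2-fold higher, against 1.16%.

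Stra8 showed the widest difference of the 10. Its spot read 13464 intensity units with shCtrl and 431 with shLincU. On the scaled log2 values these are 4.43 and 0.04, a difference of -4.39 (error 0.20) or 21.0-fold lower, from 1 probe. The local background was 28 and 29 units, so both readings stood far above it, and neither spot was an outlier or saturated. The unscaled means over the spot's pixels were 14357 and 492 units, with pixel SDs of 671 and 37.8. Of all 21018 genes only Tslrn1 was lower, at -4.70, with a dim shLincU reading of -3.82. The Stra8 probe is a 60-base oligo at chr6:34889231-34889290 of mm9, plus strand, starting at base 1343 of the transcript, and is shown by its first 30 bases because the finding rests on it alone.
Stra8 probe: ccagtagctagagttatactgccttgtctt

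Its whole sequence shared a stretch of 15 bases with the probe of 1 other gene on the array. Its spot had no neighbour among 14 that differed at least 2-fold in the same or the other direction.

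Hormad1, a HORMA-domain protein that marks unsynapsed chromosome axes, was read by 3 probes. The first, at chr3:95389076-95389135 (mm9), read 244 units on shCtrl and 111 on shLincU, a scaled difference of -0.56. The third, at chr3:95391576-95391635, read 473 and 165 units, a difference of -0.94. The second, at chr3:95389116-95389495, whose span shows that it crosses an intron, read 45.0 on shCtrl. On shLincU it was not well above background at 21.0, a reading 1.44-fold lower once scaled (error 0.41 in log2). It begins inside the stretch of the first probe, so these 2 are not separate readings. All 3 probes read lower on the shLincU array, and the gene's mean over both measured probes was -0.75 (error 0.15). The spot of the third probe was the only member spot beside discordant spots, with 2 of its neighbours at least 2-fold lower, and without it Hormad1 was at -0.56. Sycp3, an axis and synaptonemal complex protein, read 2527 and 1466 units at chr10:87935675-87935734, a scaled difference of -0.21 (error 0.20). That gap is about as large as the software's own error.

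Dazl, an RNA-binding translational regulator of germ cells, was dim on both arrays. The probe at chr17:50426957-50427103 of mm9, minus strand, spans 147 genomic bases with its 60, so it crosses an intron. Its first 30 bases are shown because it reads spliced Dazl RNA.
Dazl probe: ctgcaatcaggaaacaaaatttatgtactt

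It read 116 units on shCtrl and 27.1 on shLincU, a scaled difference of -1.52 (error 0.32). The other Dazl probe, nearer the end of the transcript at chr17:50418923-50418982, read 181 and 32.4 units, a difference of -1.91 (error 0.29). Both probes were at least 2-fold lower, by 2.86-fold and 3.75-fold. The gene's mean was -1.71, and 0.404% of genes were as low or lower. The shLincU readings were close to the lowest intensity called well above background on that array, 20.7 units. With another background correction, normexp with an offset of 50 units, Dazl was at -0.65 and no longer 2-fold lower. That offset is larger than both shLincU readings. Dazl was at least 2-fold lower in 11 of 12 processing settings.

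Ddx4, the germ cell RNA helicase known as VASA, read 1293 units on shCtrl and 578 on shLincU at chr13:113388588-113388647. The scaled difference was -0.59 (error 0.20). Before scaling to the 75th percentile the gap between the intensities was 2.24-fold.

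Of the piRNA machinery, Gpat2 stood apart. This mitochondrial outer membrane acyltransferase homologue, needed for piRNA production, read 2895 units on shCtrl and 326 on shLincU at chr2:127261706-127261765. The scaled values were 2.21 and -0.37, a difference of -2.58 (error 0.20) or 5.96-fold lower, on 1 probe that shared no 15-base stretch with a probe of another gene. Only 0.0714% of genes were as low or lower. Mael read 987 and 452 units at chr1:168131583-168131642, a difference of -0.55 (error 0.20). Asz1 was not well above background on either array with either probe, at 9.79 and 4.94 units on shCtrl and 4.42 and 4.25 on shLincU, so no difference is given for it.

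Taf7l and Tex101 showed no common direction. The Taf7l probe at chrX:130994658-130994717 read 1972 and 1394 units, a scaled difference of 0.07 (error 0.20), while its other probe was not well above background on either array. The bright probe shared 15 or more bases with the probes of 15 other genes or transcripts, the most of any member probe, in a stretch that resembles the end of a B1 repeat. It is shown for that reason over its bases 23 to 52, with capitals for bases shared with at least 1 of those probes.
Taf7l probe: TATAAGACCCTGTCTCAAAATAAAATAAAC

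How much of its signal came from Taf7l RNA was not tested. Tex101 read 563 and 257 units with the probe at chr7:25453040-25453099, a difference of -0.56 (error 0.21). With the dimmer probe at chr7:25454872-25455364 it read 74.2 and 62.1 units, a difference of 0.32 (error 0.26). The probes thus pointed opposite ways once scaled, the remaining probe (23.8 and 11.2 units) was not well above background on either array, and the gene's mean was -0.12.

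**Figure D2:**
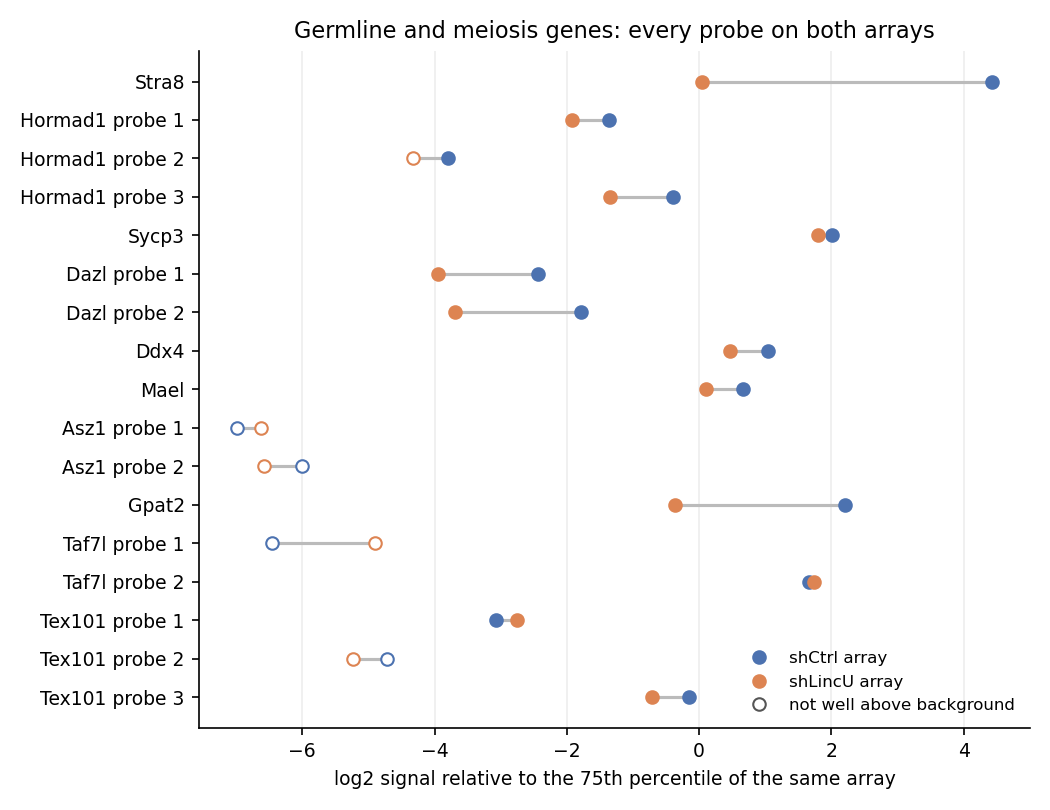
Scaled log2 signal (x axis, relative to the 75th percentile of the same array) of all 17 member probes, with shCtrl in blue and shLincU in orange, with open circles for spots not well above background; probes of a gene are numbered along its transcript. Levels of different probes are not comparable, and the widest gaps between arrays are those of Stra8 (-4.39), Gpat2 (-2.58) and Dazl (-1.52 and -1.91).

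The 9 measured members therefore fell into 3 that were at least 2-fold lower and 6 within 2-fold. The latter ran from Hormad1 at -0.75 through Ddx4, Mael, Sycp3 and Tex101 to Taf7l at 0.07. The neighbours Ddx4 and Mael (-0.59 and -0.55), and Sycp3, Tex101 and Taf7l, differed from each other by no more than about the software's errors, so their order is not settled. The E-box matches lay in 5 of the other 7 members, the unmeasured Asz1 included, and in 0 of the 3 that were at least 2-fold lower. With 10 genes this is a description only.

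**Figure D3:**
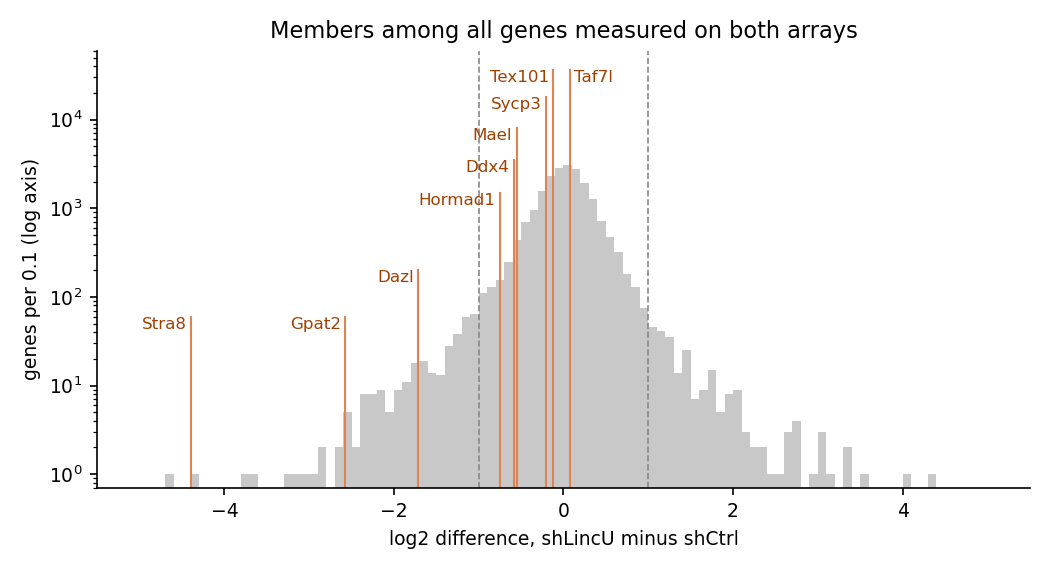
Differences of all 21018 genes measured on both arrays (grey bars, genes per 0.1 on a log axis) with the 9 measured members as lines; dashed lines mark 2-fold. Stra8, Gpat2 and Dazl lie beyond 2-fold, where 1.53% of genes lie on that side.

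Genes whose difference was nearest to that of Stra8, among those with a symbol and a mean signal at or above the median of all genes, were Ccl2 at -2.24, Zscan4a at -2.17 and Xlr4b at -2.15. Each was over 2 log2 units short of it. Nearest to Ddx4, the median member, were Lrr1, Eid1 and Nxph3, each at -0.59. Likeness here is the gap between differences over 2 arrays only.

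Meiotic prophase genes other than the members were read through 39 listed genes, of which 32 were measured on both arrays. Of these, 5 were at least 2-fold lower (15.6%, against 1.53% of all genes) and 0 at least 2-fold higher (against 1.14%). Below 0 lay 24, where 46.9% of all genes did, and the median was -0.34 against 0.02 for all genes. The lowest was Rec114, a partner of SPO11 in making meiotic DNA breaks, at -2.18 on 2 probes, with scaled values of 0.02 on shCtrl and -2.16 on shLincU. Hormad2, the paralogue of Hormad1, was at -1.65, the recombination gene Spata22 at -1.36, the cohesin subunit Rec8 at -1.24 and Tex11, which acts in crossing over, at -1.16. Rec8 had scaled values of 3.11 on shCtrl and 1.86 on shLincU. With normexp Rec114 was at -1.58 and Rec8 at -1.24, but Hormad2 at -0.47 and Spata22 at -0.33.

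By role, and named after their values were seen, the other meiotic cohesin subunits Smc1b and Stag3 were at -0.92 and -0.87. In the synaptonemal complex Syce1 was at -0.93, Sycp1 at -0.79, Six6os1 at -0.69 and Syce3 at -0.45, while Syce2 was at 0.03. Other recombination genes spread on both sides of 0, with Mei1 at -0.67, Tex15 at -0.56, the recombinase Dmc1 at -0.04, Msh5 at 0.19 and Msh4 at 0.48. The meiotic break factors Mei4 and Iho1 were at 0.14 and -0.12. Highest of the list were Prdm9 at 0.56 (2 probes with an SD of 0.60) and Ankrd31 at 0.50. Mlh3 and Meiob were also above 0, at 0.29 and 0.25. Meiosin, the partner of STRA8, was dim and at -0.14.

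The piRNA pathway list had 20 of 25 genes measured, with a median of -0.45. Of these, 3 were at least 2-fold lower (15%, against 1.53% of all genes) and 1 at least 2-fold higher (against 1.14%). Fkbp6 was at -1.76 on 2 probes, Stk31 at -1.34 and Gtsf1 at -1.18, all of them genes of piRNA production or of the granules in which it takes place. Tdrd5, a Tudor-domain protein of the same granules, was higher, at 1.05 on 2 probes. Tex19.1 was at -0.75 and the PIWI gene Piwil2 at -0.84. With normexp the list's median was -0.06, where that of all genes was 0.09.

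Germ cell specification and RNA-binding factors had 14 of 19 genes measured and a median of -0.14. That median was 0.07 without the background filter and 0.00 with normexp, where those of all genes were 0.14 and 0.09. Of the 14 genes, 1 was at least 2-fold lower (7.14%, against 1.53% of all genes). That gene was Sohlh2, a transcription factor of early germ cells, at -1.08. Factors of primordial germ cells lay near 0, with Prdm1 at 0.12, Prdm14 at -0.27, Tfap2c at 0.24 and Dppa3 at -0.21. Of genes listed as spermatogenic and silent elsewhere, 11 of 22 were measured, with a median of -0.26. With normexp it was -0.08, against 0.09 for all genes. Tuba3a, Rbmxl2 and Rpl10l read bright on shCtrl, at 5.14, 4.20 and 2.26, so their readings were not silent here. Which RNA those probes read was not tested. Of the 11, 1 was at least 2-fold lower (9.09%, against 1.53% of all genes), Fthl17e at -1.30. Another 6 stood well above background with shCtrl only, and 0 with shLincU only, where 1677 and 569 of all genes did. The widest bound among the 6 was for Ly6k, whose protein binds TEX101, at least 11.5-fold lower. Taf7l2, a relative of Taf7l, followed at least 3.37-fold lower. Bounds of at least 2-fold numbered 2 with shCtrl only and 0 with shLincU only, and 272 and 266 over all genes.

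Over the 4 lists pooled, 77 of 105 genes were measured, 10 were at least 2-fold lower (13.0%, against 1.53% of all genes) and 1 at least 2-fold higher (against 1.14%), and the median was -0.27. Another 14 stood well above background with shCtrl only, and 0 with shLincU only. Detection differed between the arrays, with 57.9% of probes well above background for shLincU against 60.9% for shCtrl, and over all genes 1677 were seen on shCtrl only and 569 on shLincU only. The lists were written with earlier results of these arrays known, so the counts are not independent evidence. With normexp background correction the pooled median was -0.10, where that of all genes was 0.09. Of the 10 genes, 3 stayed at least 2-fold lower, Rec114, Rec8 and Fthl17e. All 10 stayed below 0, but they were taken as the lowest of the same arrays. None of the 10 had a probe beside discordant spots.

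**Figure D4:**
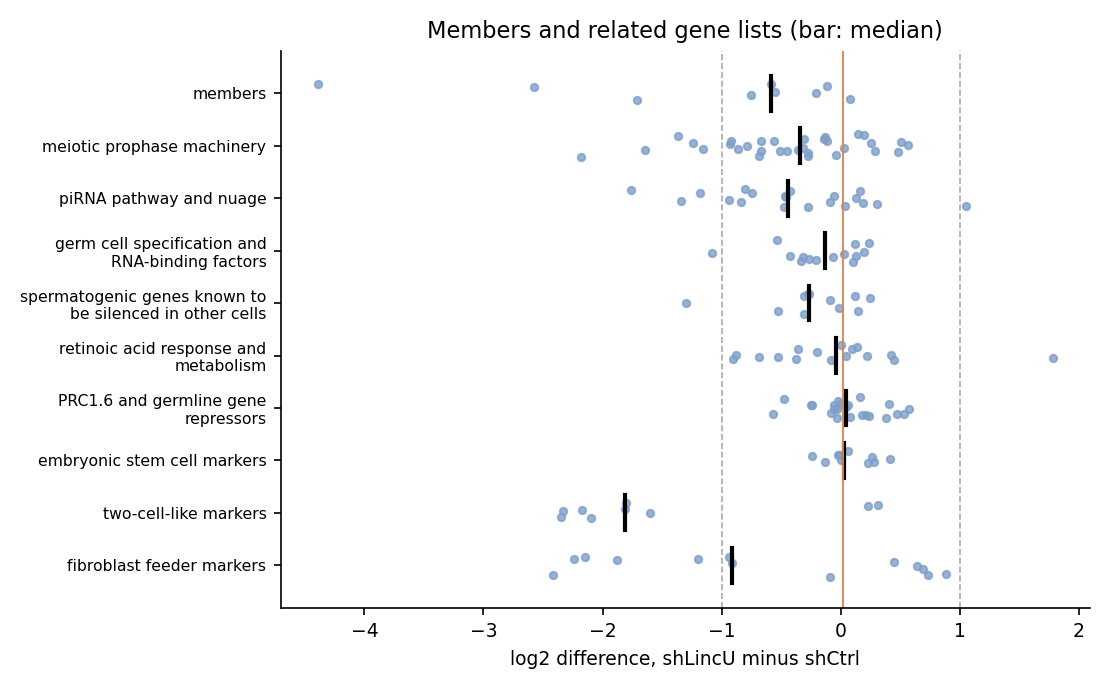
Log2 differences of single genes (points) in the members and 9 related lists, with the median of each as a black bar, the median of all genes (0.02) as an orange line and 2-fold as dashed lines. The meiotic and piRNA lists have medians of -0.34 and -0.45, and repressors and stem cell markers centre on 0. Two-cell-like and fibroblast markers have the lowest medians of the 9 lists, -1.81 and -0.91.

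Retinoic acid genes, listed because Stra8 is a known target of that signal, had 16 of 18 members measured and a median of -0.04. Of these, 0 were at least 2-fold lower (against 1.53% of all genes) and 1 at least 2-fold higher (against 1.14%). That gene was Cyp26a1, which encodes the enzyme that breaks retinoic acid down and is itself a target. It was at 1.78 (-2.49 on shCtrl and -0.71 on shLincU, on 1 probe). The receptor gene Rarb, another target, was dim and at -0.69, but at -0.02 with normexp. Dhrs3 was at -0.88 and Crabp1, a carrier of retinoic acid, at -0.91. Stra6 was at -0.20. The list thus showed no common direction beside the difference of Stra8.

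The repressors of germline genes were all measured, 23 of 23, with a median of 0.05. Of them 0 differed 2-fold in either direction, where 1.53% of all genes were lower and 1.14% higher. By those shares a list of this size would hold few or none. The widest were Pcgf6, the subunit that defines PRC1.6, at -0.57 on 2 probes and the DNA methyltransferase Dnmt3b at 0.57 on 3 probes. Of the same complex, Mga, E2f6 and L3mbtl2 were at 0.16, -0.03 and 0.06, and Max, which also partners other proteins such as MYC, was at -0.05. Uhrf1, which guides maintenance methylation, was at 0.47 and the histone methyltransferase Ehmt2 at 0.53, while Dnmt1 was at -0.03. These are RNA levels, and neither methylation nor binding was measured here.

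Marker lists of other cells were read beside the members. Embryonic stem cell markers were all measured on both arrays, 10 of 10. Of them 0 differed 2-fold, where 1.53% of all genes were lower and 1.14% higher. Pou5f1, Sox2 and Nanog were at -0.02, 0.00 and 0.27 (the last over 2 probes with an SD of 0.74). The labelled cell type thus showed its defining genes. The widest of these markers were Lin28a at 0.41 and Utf1 at 0.28. Of the markers of two-cell-like cells, a small fraction of stem cell cultures, 9 of 13 were measured. Of these, 7 were at least 2-fold lower (77.8%, against 1.53% of all genes) and the median was -1.81 (-1.37 with normexp). Usp17lc was at -2.35, Usp17la at -2.34, Zscan4c at -2.17, Zscan4f at -2.09, Tmem92 at -1.81 and Tcstv3 at -1.80; probes for the Usp17l and Zscan4 families may also read close copies. The list's summed level (log2) was 5.68 on shCtrl and 5.45 on shLincU, a sum that follows its brightest probes, Eif1a at 0.23 and Zfp352 at 0.31. Zscan4d and Dux were not well above background on either array. Of fibroblast markers, which would show remaining feeder cells, 13 of 15 were measured, with a median of -0.91 (-0.15 with normexp, all genes 0.09). Of these, 5 were at least 2-fold lower (38.5%, against 1.53% of all genes) and 0 at least 2-fold higher (against 1.14%). Dcn was at -2.41, Ccl2 at -2.24, Lox at -2.15, S100a4 at -1.88 and Col1a2 at -1.20. Above 0 were Tagln at 0.88, Col5a1 at 0.73, Twist2 at 0.69, Col3a1 at 0.64 and Col1a1 at 0.45. Lum stood well above background with shLincU only, at least 2.32-fold higher, and Pdgfra with shCtrl only. The summed levels of 5.94 and 6.04 follow the brightest probes, Vim at -0.09 and Tagln, and do not show the lower readings of the dimmer markers. In RNA from whole cultures, fewer cells of a kind and less RNA per cell cannot be told apart. The part of two-cell-like or feeder cells in the members' differences was not tested.

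Scaled to the E1A spike-in controls, the median of all genes was -0.87, 32.3% of genes were at least 2-fold lower and 0.205% higher, and 8 of the 9 members passed 2-fold. The reported differences therefore state how a gene stood against most other genes of its array. Measured against the median of all genes in the same setting, Stra8 lay between -4.53 and -4.34 in all 12 settings and Gpat2 between -2.72 and -2.50. On the same measure Taf7l stayed close to the median, at 0.05 in the reported processing and with the spike-in scaling and at -0.05 with normexp. It was at 0.67 and 0.80 in the settings that averaged in its probe that was not well above background. The other 8 measured members were below the median of all genes in all 12 settings.

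**Figure D5:**
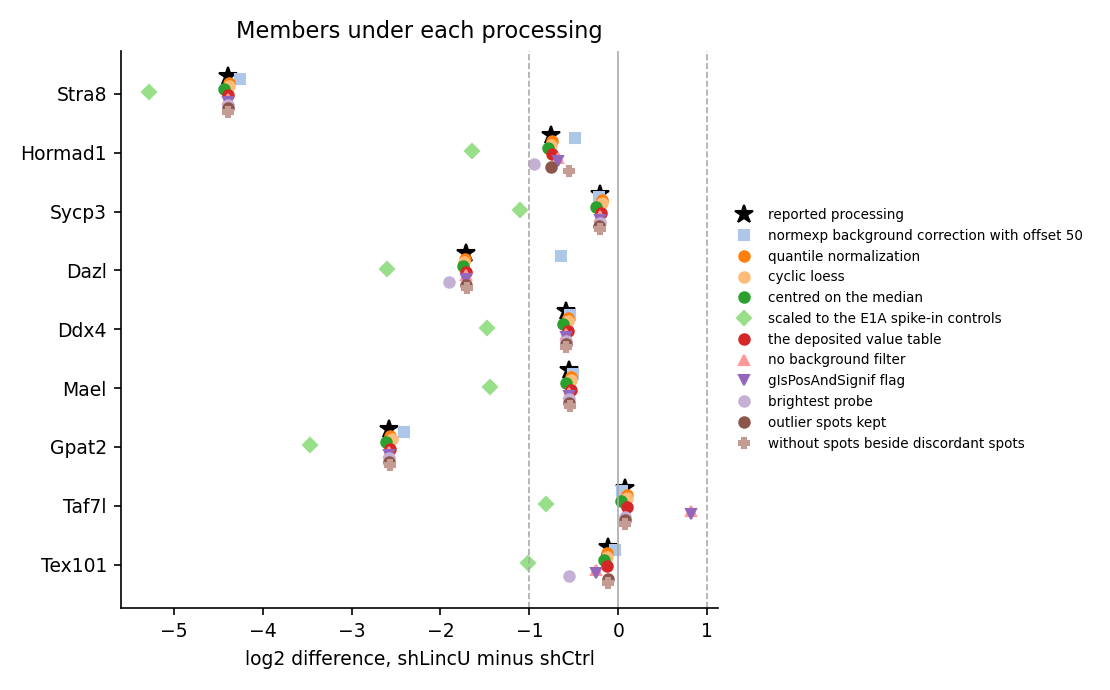
Log2 difference of the 9 measured members (rows) in the reported processing (star) and 11 alternatives (other symbols); dashed lines mark 2-fold. Stra8 and Gpat2 stay beyond 2-fold in all 12, Dazl in 11, and the spike-in scaling shifts all members down together.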

How the data were processed

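Each group of 46C cells gave 1 Cy3-labelled RNA on an Agilent array of one colour, per the labels. The deposited scanner files hold spot intensity values from Feature Extraction 10.7.1.1 (version credited to the submitters' processing notes), background-corrected and detrended, per the file headers, beside uncorrected mean and background intensities and flags of 0 or 1. The deposited value table holds log2 values with equal quantiles in both columns and a median of 5.65; over 56572 matched probes their slope on log2 scanner values was 1.00 for each array. Its normalization and centring are not given in the sources used here.

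Control spots and outlier spots (98 and 138) were left out, repeated spots averaged, and log2 processed intensity centred on the array's 75th percentile. A gene's difference averages those of its probes that both arrays measured well above background. Where 1 array alone measured it, the other array's lowest such signal, or the probe's own if higher, gave a bound. Probes were named through a RefSeq table of GRCm38.p6 (32994 by accession, 10224 by symbol, 520 by synonym, 12867 by the array's name); listed Meiosin is there Bhmg1, Six6os1 4930447C04Rik and Fthl17 Fthl17e. Probe coordinates are the array's, in mm9. Promoter sequences are RefSeq's. Spots called beside discordant spots have 2 or more of 14 neighbours (up to 2 rows and 1 column away) differing at least 2-fold in a common direction.

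Members and lists were chosen with earlier results of these data known. Named genes are all members, up to 6 per list at least 2-fold apart (otherwise the 2 widest), the 3 nearest to the lowest and to the median member, and Pou5f1, Sox2 and Nanog; other list genes were picked with their values in view. Known changes and noise added to the shCtrl signals were used to check the calculation of differences. Detection was the same on both sides of that check, so it did not cover the bounds. Software was R 4.3.3 with limma 3.58.1, and Python 3.11.15 with numpy 2.4.6, pandas 2.3.3 and matplotlib 3.10.9.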

Additional observations from a re-analysis of the deposited data

How the results depend on the processing

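No paired analysis was possible because a single array stands for each group, nor could an array be left out. No member at least 2-fold apart changed direction in any alternative. With normexp background correction 108 genes were at least 2-fold lower and 95 higher, and of the other germline genes 3 and 0. Scaled to the E1A spike-in controls 6798 and 43 genes were, 8 members were lower, other germline genes gave 48 and 0, and their median was -1.17. Without a background filter the counts were 1330 and 1463, and 19 and 2 of the other germline genes; with the gIsPosAndSignif flag they were 904 and 952, and 2 other germline genes were higher. At 1.5-fold 1017 genes were lower, 1005 higher, 5 members lower and 21 other germline genes lower. At 3-fold 109 genes were lower, 72 higher, and 3 and 0 of the other germline genes. Other sizes and filters differ by construction. The normexp setting adds its offset of 50 units to each spot, which by construction narrows the log2 gap of dim spots most. Its background step was not examined apart from the offset. Signal over background limits dim genes such as Dazl, whose difference with normexp was -0.65.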

Other observations

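The 20 genes with a symbol and the lowest differences, of which some are named here with their values in view, included Ctcfl. It encodes the testis-restricted paralogue of the insulator protein CTCF, and read 0.65 on shCtrl and -3.05 on shLincU, a difference of -3.70 on 1 probe that lay beside no discordant spots. Nxf3, a relative of the messenger RNA export factor NXF1, was at -2.59 with values of -0.98 and -3.58. Tslrn1, the lowest of all, was at 0.88 and -3.82. The lowest value called well above background on the shLincU array was -4.34. The shLincU readings of Tslrn1, Nxf3 and Ctcfl were thus dim, so the sizes of their differences are uncertain. Of these 20 genes, 2 were members, Stra8 and Gpat2.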
